A study of Mus musculus with 8 samples.

Results

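Aminoacyl-tRNA synthetases are the enzymes that join each amino acid to its transfer RNA (tRNA). The set described here held 35 genes, 19 for cytosolic and 16 for mitochondrial enzymes, out of 18193 genes that the arrays measured through a probe set with a single gene symbol. A member was any listed synthetase gene with such a probe set, matched by its current symbol or by the older symbol without the final 1. Where a gene had several probe sets, the one with the highest mean over the 8 arrays stood for it, and all 35 members were bright enough to be tested.

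Messenger RNA was profiled on Affymetrix mouse arrays in primary CD4+ T cells, the helper class of T lymphocytes, from mice of the inbred BALB/c strain. The 4 groups, with 2 arrays each, were stimulated cells with dorsomorphin, stimulated cells, dorsomorphin-treated cells and control cells. Stimulation was 1 h of culture on immobilised antibody to CD3 with soluble antibody to CD28, which engage the T cell receptor complex and a costimulatory receptor, and the unstimulated groups spent that hour without antibodies. Every group then received 4 µM dorsomorphin (DM) or its solvent DMSO for 6 h, so cells without dorsomorphin were solvent controls. Dorsomorphin is a small molecule that inhibits the kinase AMPK and the type I receptors of bone morphogenetic proteins, and nothing in this design tells its targets apart. Whether the 2 replicates of a group were separate mice or separate cultures is not stated in the labels. The p-values therefore reflect the array-to-array spread alone, and that spread may be technical.

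The cytosolic synthetases charge tRNAs for the ribosomes of the cytoplasm, and several of them sit in a large multi-synthetase complex held together by scaffold proteins. The mitochondrial enzymes are encoded in the nucleus, imported into mitochondria, and charge the tRNAs that translate the few proteins of the mitochondrial genome. GARS1 and KARS1 serve both compartments from a single gene each. Many cytosolic synthetase genes are known targets of ATF4, the transcription factor of the amino acid response, and the transcription factor MYC is known to raise many genes of protein synthesis in activated lymphocytes.

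Levels are given as log2 signal, the base 2 logarithm of the deposited intensity, and a difference is the first-named group minus the second on that scale, ± its standard error (SE). A gene was said to rise or fall where limma, fitted to all 8 arrays and all 13983 tested genes at once, gave a Benjamini-Hochberg adjusted p below 0.05. Signals of different genes were read by different probes, so no level is compared between genes. Median signals ran from 45.4 to 74.5 over the arrays, and arrays of a group correlated at 0.937 to 0.953 (Pearson, over genes). All 6 genes chosen to check the stimulation rose in stimulated cells against control cells, by 3.59 (Cd69, an early activation receptor) to 7.78 (Il2, the T cell growth factor), and all 6 fell in stimulated cells with dorsomorphin against stimulated cells, by 2.16 to 8.02.

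The cell type labels were set against marker genes. All 8 measured T cell markers were above the floor on every array, but their summed signal differed by group: 34800 and 34610 in stimulated cells with dorsomorphin, 56270 and 54660 in stimulated cells, 32820 and 23920 in dorsomorphin-treated cells, and 71860 and 70940 in control cells. The summed signal of 13 myeloid and dendritic markers was 2330 and 2980 in stimulated cells with dorsomorphin, 3067 and 2743 in stimulated cells, 2513 and 2774 in dorsomorphin-treated cells, and 6687 and 13910 in control cells. The 7 markers of CD8 T and NK cells summed to 653 to 737 in stimulated cells with dorsomorphin, 1241 to 1591 in stimulated cells, 463 to 688 in dorsomorphin-treated cells and 1186 to 1374 in control cells. The 9 markers of B cells summed to 587 to 593, 345 to 517, 313 to 315 and 602 to 745 in the same groups. No marker was listed at 0.

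Of the 8 T cell markers, 1 rose and 1 fell in stimulated cells against control cells, 1 rose and 3 fell in stimulated cells with dorsomorphin against stimulated cells, and 5 fell in dorsomorphin-treated cells against control cells. Of the 13 myeloid markers, 3, 0 and 2 fell in these comparisons. Over all tested genes 8.98% rose and 14.4% fell, 9.71% rose and 12.4% fell, and 1.92% rose and 11.1% fell in the same order, so the count of T cell markers with stimulation and those of myeloid markers with dorsomorphin lay near or below these shares. The part of the markers in the results below was not tested. In bulk samples such as these, a change in the mix of cells and a change in RNA per cell cannot be told apart.

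Most cytosolic synthetases rose together in stimulated cells. Of the 35 members, 17 rose in stimulated cells against control cells and 0 fell, where 8.98% of all tested genes rose and 14.4% fell. The 17 were 15 of the 19 cytosolic enzymes, with a median difference of 1.74, and 2 of the 16 mitochondrial enzymes, with a median of 0.09. Over all tested genes the median was -0.27. With either control replicate left out, 0 of 35 members and 0 of all genes passed, and 17 members (without control replicate 1) or 18 (without control replicate 2) had an unadjusted p below 0.05, where 14.3% of all genes rose and 24% fell at that level in the full fit. Without stimulated replicate 2, 5 members passed.

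**Figure D1:**
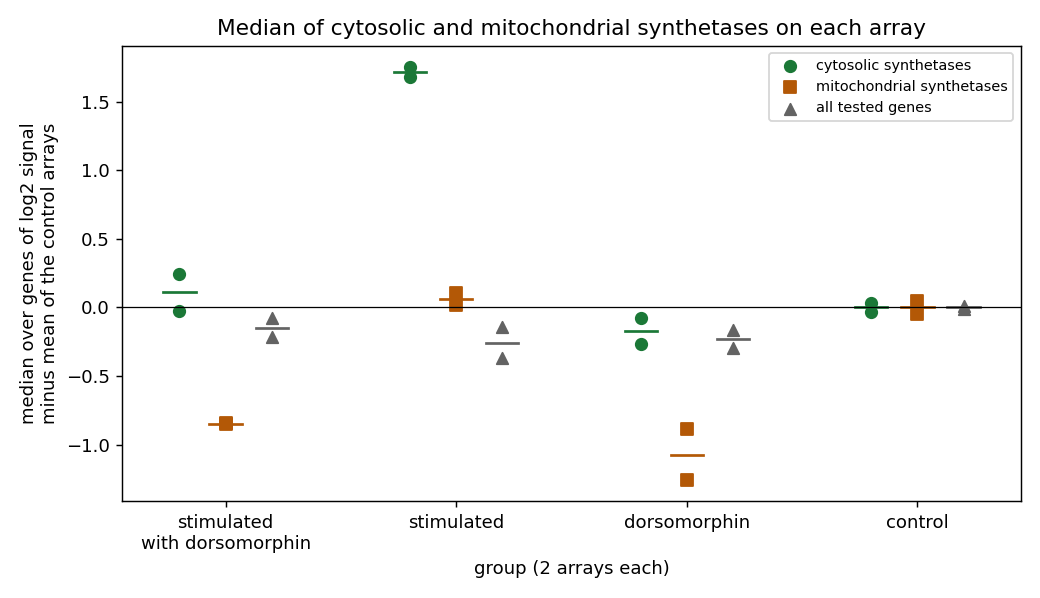
Median log2 signal of the cytosolic synthetases, the mitochondrial synthetases and all tested genes on each of the 8 arrays, relative to the control mean of each gene. The cytosolic medians were 1.68 and 1.76 in stimulated cells and between -0.27 and 0.24 on the other arrays, while the mitochondrial medians were between -1.26 and -0.84 on the 4 arrays with dorsomorphin (-1.13 in place of -1.26 with the dim Mars2 at the floor) and between -0.05 and 0.11 on the 4 without.

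Among the enzymes of the multi-synthetase complex, 6 of 7 rose. Iars1, which encodes the isoleucine enzyme, had log2 signals of 10.23 and 10.35 in stimulated cells with dorsomorphin, 12.86 and 13.05 in stimulated cells, 10.18 and 9.62 in dorsomorphin-treated cells and 10.71 and 10.68 in control cells. Its stimulated arrays stood above all 6 others, and the difference between stimulated and control cells was 2.26 ± 0.26, or 4.78-fold (limma adjusted p = 0.00926). Rars1, for arginine, had 10.89 and 11.80 in stimulated cells with dorsomorphin, 12.76 and 13.18 in stimulated cells, 10.93 and 11.24 in dorsomorphin-treated cells and 10.61 and 10.92 in control cells. The stimulated arrays were again the highest, with a difference from control of 2.21 ± 0.37 (adjusted p = 0.0154), and 1 of the arrays with both treatments, at 11.80, lay above every unstimulated array.

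Eprs1, whose product carries both the glutamate and the proline enzyme on 1 chain, had 10.15 and 10.08 in stimulated cells with dorsomorphin, 12.14 and 12.21 in stimulated cells, 10.32 and 10.11 in dorsomorphin-treated cells and 10.29 and 10.46 in control cells, a tight separation of the stimulated arrays from the rest. Stimulated cells exceeded control cells by 1.80 ± 0.21 (adjusted p = 0.00926). Kars1, for lysine, had 10.90 and 11.83 in stimulated cells with dorsomorphin, 12.62 and 12.97 in stimulated cells, 10.86 and 11.08 in dorsomorphin-treated cells and 10.90 and 10.96 in control cells, and rose by 1.87 ± 0.35 with stimulation. Mars1, for methionine, and Lars1, for leucine, rose by 1.69 ± 0.27 and 1.36 ± 0.30.

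Qars1, which encodes the glutamine enzyme of the same complex, did not pass. Its signals were 11.58 and 11.31 in stimulated cells with dorsomorphin, 11.15 and 11.59 in stimulated cells, 11.10 and 10.92 in dorsomorphin-treated cells and 11.37 and 11.42 in control cells, with the control arrays inside the range of the stimulated arrays. The difference between stimulated and control cells was -0.02 ± 0.25 (adjusted p = 0.96). Its 3 other probe sets, all above the floor on all 8 arrays, gave differences of -0.06, -0.45 and -0.37.

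Of the 12 cytosolic enzymes outside the complex, 9 rose. Tars1, the threonine enzyme, had 10.29 and 10.67 in stimulated cells with dorsomorphin, 12.15 and 12.30 in stimulated cells, 10.15 and 10.53 in dorsomorphin-treated cells and 9.94 and 10.22 in control cells. Its stimulated arrays stood apart from all others, and stimulated cells exceeded control cells by 2.14 ± 0.26, or 4.42-fold (adjusted p = 0.0095). Aars1, for alanine, had 9.67 and 10.35 in stimulated cells with dorsomorphin, 11.74 and 11.92 in stimulated cells, 9.62 and 9.66 in dorsomorphin-treated cells and 9.70 and 10.15 in control cells, with a difference of 1.90 ± 0.31 (adjusted p = 0.0147). Here too the stimulated arrays lay above the other 6, which overlapped among themselves.

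The phenylalanine enzyme is built from an alpha chain, encoded by Farsa, and a beta chain, encoded by Farsb, and both genes rose. Farsb had 9.38 and 9.89 in stimulated cells with dorsomorphin, 12.14 and 12.58 in stimulated cells, 9.31 and 8.83 in dorsomorphin-treated cells and 10.35 and 10.58 in control cells. Its stimulated arrays were the highest and its control arrays lay above both arrays of each group with dorsomorphin; the difference between stimulated and control cells was 1.90 ± 0.32 (adjusted p = 0.0154). Farsa had 10.17 and 10.38 in stimulated cells with dorsomorphin, 11.52 and 11.58 in stimulated cells, 10.22 and 10.20 in dorsomorphin-treated cells and 10.22 and 9.65 in control cells, and its control arrays did not lie above those with dorsomorphin. Stimulated cells exceeded control cells by 1.62 ± 0.26 (adjusted p = 0.0146).

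Gars1, for glycine, had 11.08 and 11.51 in stimulated cells with dorsomorphin, 12.74 and 12.93 in stimulated cells, 11.23 and 11.30 in dorsomorphin-treated cells and 11.06 and 11.12 in control cells. Nars1, for asparagine, had 11.40 and 11.63 in stimulated cells with dorsomorphin, 13.19 and 13.11 in stimulated cells, 11.41 and 11.27 in dorsomorphin-treated cells and 11.40 and 11.42 in control cells. In both genes the stimulated arrays stood above the rest by more than the spread among the other 6. Cars1, for cysteine, had 8.34 and 8.65 in stimulated cells with dorsomorphin, 10.20 and 9.99 in stimulated cells, 8.40 and 7.75 in dorsomorphin-treated cells and 8.47 and 8.02 in control cells, again with the stimulated arrays highest.

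The other enzymes outside the complex that rose were Cars1 (1.85 ± 0.32), Gars1 (1.75 ± 0.24), Nars1 (1.74 ± 0.21), Hars1 for histidine (1.52 ± 0.32) and Vars1 for valine (1.23 ± 0.32). Vars1 was the weakest of the 17 calls, at an adjusted p of 0.0417. It was lost with each array centred on its median, with no filter on low values and in a fit of only the 4 arrays compared.

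The 3 enzymes that did not pass were those for serine, tryptophan and tyrosine. Sars1 had 12.06 and 11.77 in stimulated cells, against 11.63 and 11.58 in control cells, a difference of 0.31 ± 0.23 (adjusted p = 0.379). Wars1 had 11.14 and 10.36 in stimulated cells, against 9.03 and 9.13 in control cells, so its arrays did not overlap, but the stimulated arrays differed from each other by more than the control arrays did and the difference of 1.67 ± 0.51 had an adjusted p of 0.0646. Yars1 had 9.79 and 9.57 in stimulated cells, against 9.06 and 8.86 in control cells, also without overlap, and a difference of 0.72 ± 0.22 (adjusted p = 0.061). Wars1 and Yars1 each passed in 5 of 10 other settings of the processing, and Sars1 in 0 of 10.

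**Figure D2:**
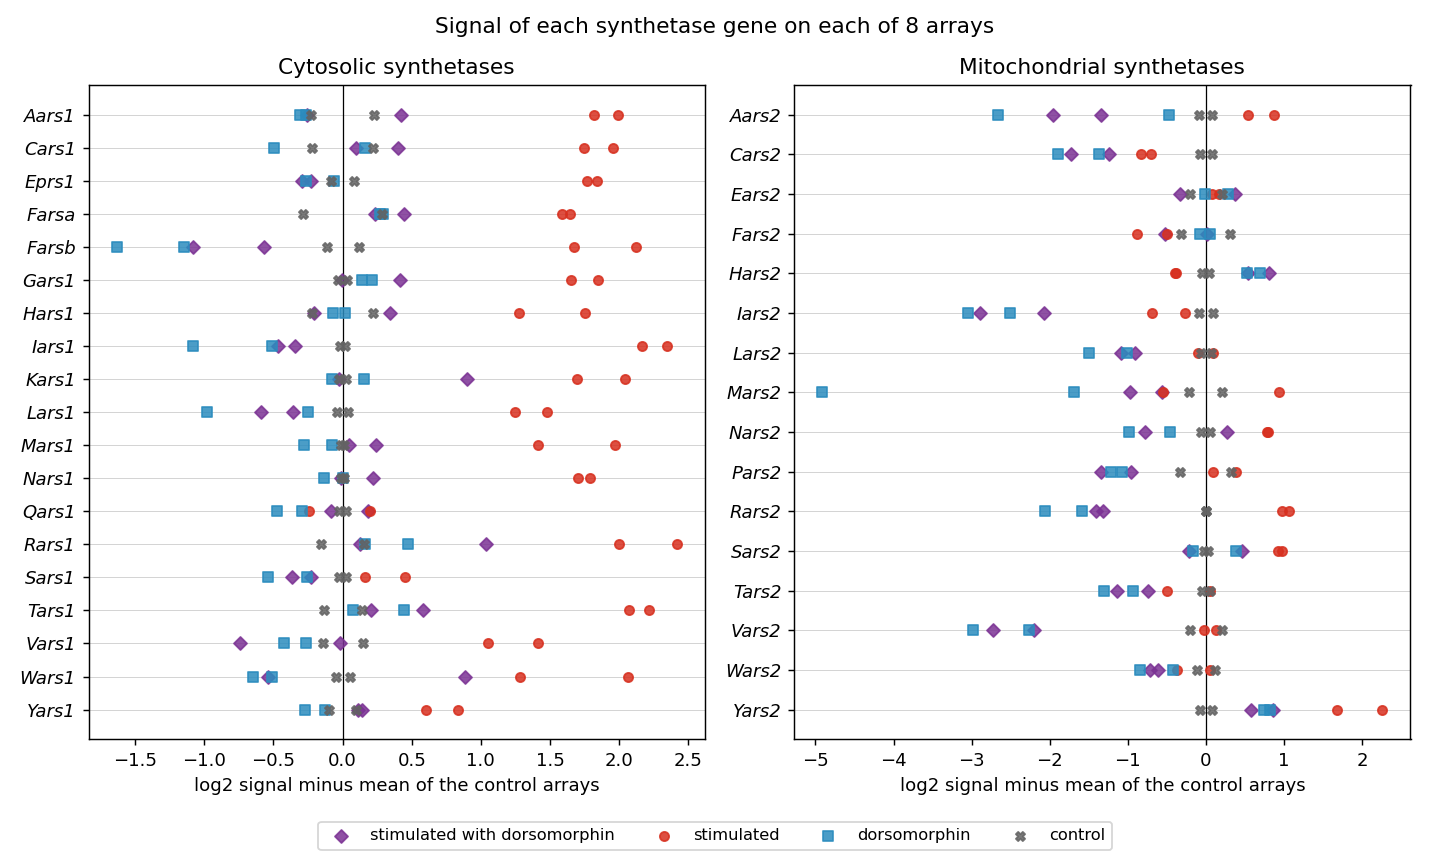
Log2 signal of each of the 35 synthetases on each of the 8 arrays, relative to the gene's mean over the control arrays, with cytosolic and mitochondrial enzymes in separate panels of different range. Iars1, with a difference of 2.26 between stimulated and control cells, and Rars1, with 2.21, had the largest among cytosolic enzymes, and Qars1, with -0.02, showed none of that size.

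Most mitochondrial synthetases did not pass in the same comparison. The 2 of 16 that rose were 12.5% of the list, a count near the 8.98% of all tested genes. Yars2, the mitochondrial tyrosine enzyme, was the exception in size, with 9.67 and 9.96 in stimulated cells with dorsomorphin, 10.78 and 11.36 in stimulated cells, 9.84 and 9.91 in dorsomorphin-treated cells and 9.17 and 9.02 in control cells. Its stimulated arrays stood highest and its control arrays lowest, and stimulated cells exceeded control cells by 1.97 ± 0.27, or 3.92-fold (adjusted p = 0.0118). Its other probe set gave a difference of 2.35.

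Rars2, the mitochondrial arginine enzyme, had 7.82 and 7.91 in stimulated cells with dorsomorphin, 10.20 and 10.30 in stimulated cells, 7.64 and 7.18 in dorsomorphin-treated cells and 9.23 and 9.23 in control cells. The stimulated arrays were the highest, the control arrays came next, and all 4 arrays with dorsomorphin lay below both groups. The difference between stimulated and control cells was 1.02 ± 0.24 (adjusted p = 0.0323). This call was lost in 2 of 10 other settings, with no filter on low values and in a fit of only the 4 arrays compared. Of the 14 that did not pass, 7 had a difference above 0 and 7 below 0, from -0.76 (Cars2, for cysteine) to 0.95 (Sars2, for serine).

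Sars2 had 7.63 and 6.95 in stimulated cells with dorsomorphin, 8.15 and 8.10 in stimulated cells, 7.55 and 7.01 in dorsomorphin-treated cells and 7.20 and 7.15 in control cells, with the stimulated arrays highest, but the difference did not pass (adjusted p = 0.0813). Nars2, for asparagine, had 8.30 and 9.36 in stimulated cells with dorsomorphin, 9.88 and 9.87 in stimulated cells, 8.62 and 8.10 in dorsomorphin-treated cells and 9.03 and 9.14 in control cells, again highest in stimulated cells and not passed (0.79 ± 0.39, adjusted p = 0.205). In Tars2, for threonine, the arrays were at 9.38 and 9.78 in stimulated cells with dorsomorphin, 10.58 and 10.02 in stimulated cells, 9.59 and 9.21 in dorsomorphin-treated cells and 10.57 and 10.47 in control cells, so that both groups with dorsomorphin lay lowest. Ears2, for glutamate, Fars2, for phenylalanine, and Wars2, for tryptophan, stayed between 7.02 and 8.78 on all 8 arrays and passed in 0 of the 5 comparisons.

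Most synthetases fell with dorsomorphin in stimulated cells. In stimulated cells with dorsomorphin against stimulated cells, 21 of the 35 members fell, where 12.4% of all tested genes fell, and 1 rose, where 9.71% of all tested genes rose. Those that fell were 15 of 19 cytosolic enzymes, with a median difference of -1.60, and 6 of 16 mitochondrial enzymes, with a median of -0.98, beside a median over all tested genes of 0.07. This comparison shares the stimulated arrays with the one against control, so a high value on those arrays raises that difference and lowers this one, and neither set of calls supports the other. In a fit of only the 4 arrays compared, 0 members and 0 of all genes passed, with 23 members at an unadjusted p below 0.05 (in the full fit 17.4% of all genes rose and 18.9% fell at that level). Without stimulated replicate 1 the fit called 13 members, without stimulated replicate 2 it called 6, and without replicate 1 of stimulated cells with dorsomorphin it called 7.

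**Figure D3:**
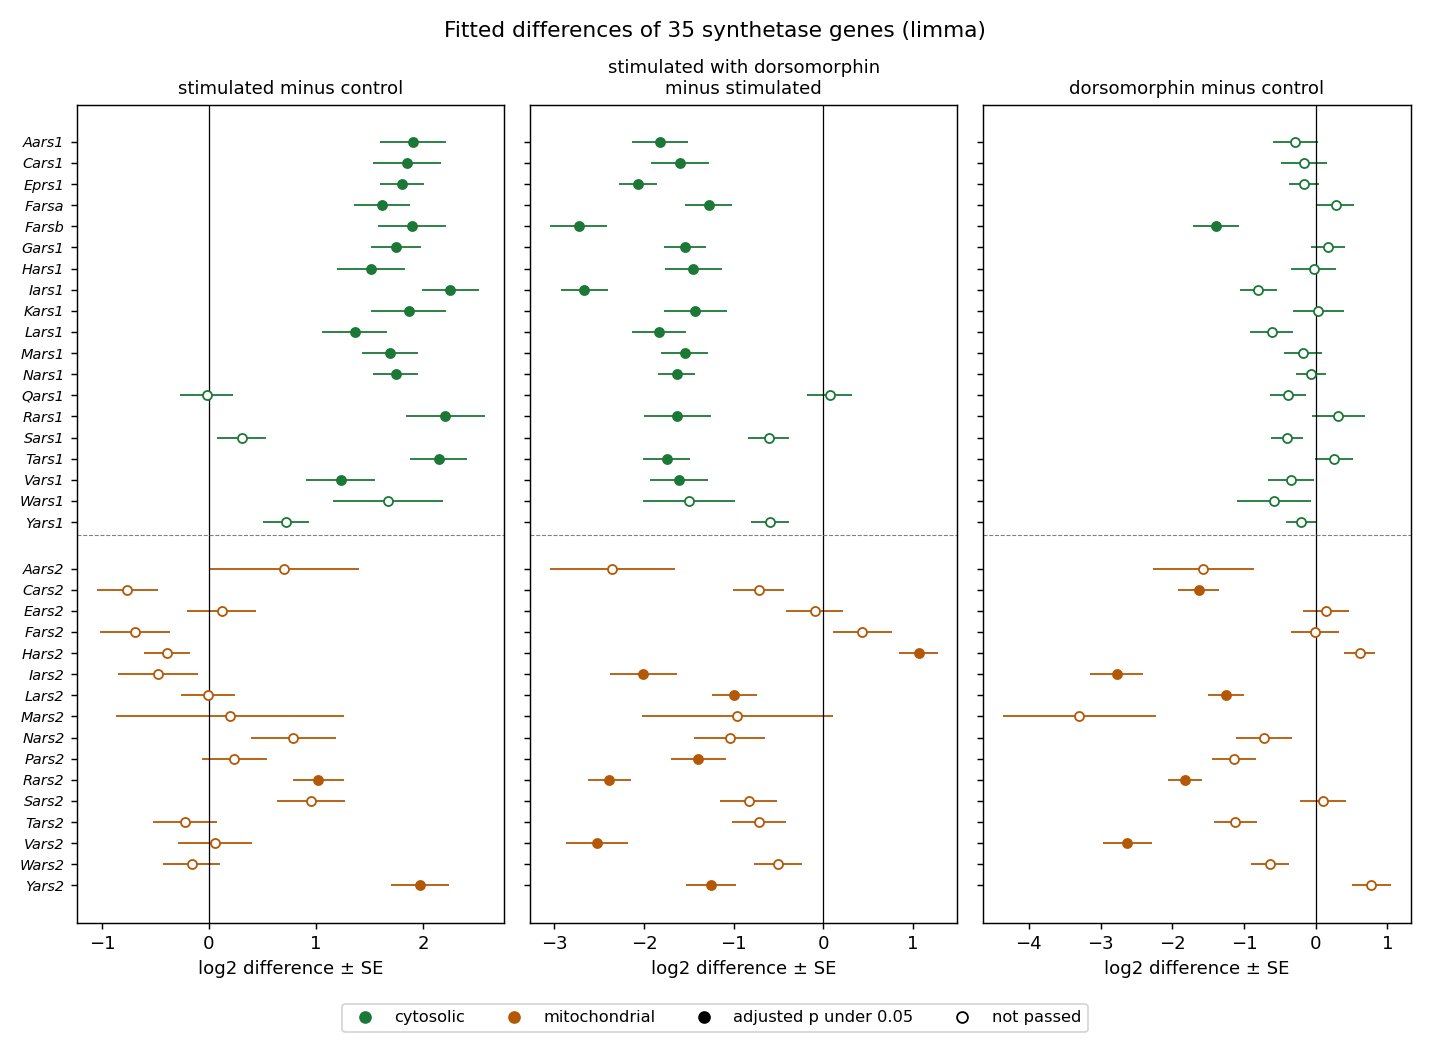
Log2 difference of each synthetase, with its SE, for stimulation without dorsomorphin, dorsomorphin in stimulated cells and dorsomorphin in unstimulated cells, on axes of different range. Filled points passed the adjusted threshold: 17 rose with stimulation, 21 fell and 1 rose with dorsomorphin in stimulated cells, and 6 fell with dorsomorphin in unstimulated cells, where the point of Mars2 is a fit against arrays under the floor.

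Among cytosolic enzymes the differences between stimulated cells with and without dorsomorphin ran from -2.73 to 0.07. Farsb fell by 2.73 ± 0.32 (adjusted p = 0.00694) and Iars1 by 2.66 ± 0.26 (adjusted p = 0.00592), that is to 6.62-fold and 6.33-fold lower levels. Eprs1 fell by 2.07 ± 0.21 (adjusted p = 0.00592). For these 3 genes the arrays with both treatments, listed above, lay below both control arrays.

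The other cytosolic enzymes that fell did so by between 1.28 (Farsa) and 1.84 (Lars1). The 4 that did not pass were the same 4 that had not passed for stimulation. Qars1 differed by 0.07 ± 0.25, Sars1 by -0.61 ± 0.23, Yars1 by -0.59 ± 0.22 and Wars1 by -1.50 ± 0.51. Wars1 had an adjusted p of 0.0901, with arrays at 8.54 and 9.96 in stimulated cells with dorsomorphin, against 11.14 and 10.36 in stimulated cells. Its arrays with both treatments lay further apart than those of any other cytosolic enzyme and did not overlap the stimulated arrays.

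Of the mitochondrial enzymes, Vars2 for valine, Rars2, Iars2 for isoleucine, Pars2 for proline, Yars2 and Lars2 for leucine fell in stimulated cells with dorsomorphin. Vars2 had 5.07 and 5.59 in stimulated cells with dorsomorphin, 7.77 and 7.92 in stimulated cells, 5.53 and 4.81 in dorsomorphin-treated cells and 7.99 and 7.59 in control cells. Both groups with dorsomorphin lay far below both without it, at or near the floor of 5.22, and the difference in stimulated cells was -2.52 ± 0.35 (adjusted p = 0.00869). Rars2, with the values given above, fell by 2.39 ± 0.24 (adjusted p = 0.00592).

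Iars2 had 8.01 and 7.18 in stimulated cells with dorsomorphin, 9.81 and 9.39 in stimulated cells, 7.57 and 7.03 in dorsomorphin-treated cells and 10.17 and 9.99 in control cells. All 4 arrays with dorsomorphin lay below all 4 without it, and the difference in stimulated cells was -2.01 ± 0.37 (adjusted p = 0.0172). Pars2 had 6.82 and 7.20 in stimulated cells with dorsomorphin, 8.55 and 8.26 in stimulated cells, 7.09 and 6.96 in dorsomorphin-treated cells and 8.49 and 7.84 in control cells, the same separation, and fell by 1.39 ± 0.31 (adjusted p = 0.0279). Yars2 fell by 1.25 ± 0.27 (adjusted p = 0.0272), but to a level still above the control arrays.

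Lars2 had 8.44 and 8.25 in stimulated cells with dorsomorphin, 9.24 and 9.43 in stimulated cells, 8.33 and 7.85 in dorsomorphin-treated cells and 9.27 and 9.41 in control cells. Its difference of -0.99 ± 0.25 in stimulated cells (adjusted p = 0.0411) was the smallest of the falls, and 4 of 10 other settings lost the call. Aars2, for alanine, had a larger difference, -2.35 ± 0.70, but did not pass (adjusted p = 0.0624), with arrays at 5.84 and 5.24 in stimulated cells with dorsomorphin, against 7.72 and 8.06 in stimulated cells. Aars2 passed in 6 of 10 other settings.

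Hars2, the mitochondrial histidine enzyme, was the 1 member that rose with dorsomorphin in stimulated cells. It had 10.16 and 10.43 in stimulated cells with dorsomorphin, 9.22 and 9.24 in stimulated cells, 10.32 and 10.15 in dorsomorphin-treated cells and 9.67 and 9.58 in control cells. All 4 arrays with dorsomorphin lay above all 4 without it, and the difference in stimulated cells was 1.06 ± 0.21 (adjusted p = 0.0219). The call was lost with each array centred on its median and with the mean of its probe sets, of which the other gave 0.31. In unstimulated cells the difference was 0.61 ± 0.21 and did not pass (adjusted p = 0.114).

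Hars2 and Hars1 were the only members that neighbour each other in the genome, next to each other on chromosome 18 in the RefSeq gene table. Hars1 had 10.95 and 11.50 in stimulated cells with dorsomorphin, 12.44 and 12.92 in stimulated cells, 11.09 and 11.18 in dorsomorphin-treated cells and 10.94 and 11.38 in control cells, with the stimulated arrays highest. It rose by 1.52 ± 0.32 with stimulation and fell by 1.45 ± 0.32 with dorsomorphin in stimulated cells, where Hars2 differed by -0.39 ± 0.21 and 1.06 ± 0.21. With stimulation the Hars2 difference did not pass (limma adjusted p = 0.244), beside a median of -0.27 over all tested genes. It ran from -0.39 to -0.03 in the other settings. The fitted values of the neighbouring genes had opposite signs in both comparisons, but Hars2 passed only with dorsomorphin in stimulated cells. The difference between them was not tested.

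In unstimulated cells the members that fell with dorsomorphin were nearly all mitochondrial. In dorsomorphin-treated cells against control cells 6 members fell, where 11.1% of all tested genes fell, and 0 rose, where 1.92% of all tested genes rose. The 6 were 5 of 16 mitochondrial enzymes, with a median difference of -1.13 (-1.09 with the dim Mars2 at its bound), and 1 of 19 cytosolic enzymes, with a median of -0.18, against -0.24 over all tested genes. The cytosolic count, 5.26% of its list, lay below the share of all genes. This comparison shares the control arrays with that of stimulation. Without control replicate 1, without control replicate 2 or without dorsomorphin replicate 2, 0 members passed, with 6, 8 and 9 at an unadjusted p below 0.05 (in the full fit 7.8% of all genes rose and 23.6% fell at that level). With each array centred on its median, and in a fit of only the 4 arrays, 3 passed, all mitochondrial, and the cytosolic median was 0.04 with centring.

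The 3 that passed in all 10 other settings of the processing were Iars2, Vars2 and Rars2. Iars2 fell by 2.78 ± 0.37 (adjusted p = 0.0141), a level 6.85-fold lower in dorsomorphin-treated cells. Vars2 fell by 2.63 ± 0.35 (adjusted p = 0.0139) and Rars2 by 1.82 ± 0.24 (adjusted p = 0.0138). In each of them the arrays with dorsomorphin did not overlap the control arrays.

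Cars2 had 8.11 and 7.63 in stimulated cells with dorsomorphin, 8.53 and 8.66 in stimulated cells, 7.98 and 7.46 in dorsomorphin-treated cells and 9.44 and 9.28 in control cells. The control arrays stood highest, the stimulated arrays came next and the 4 with dorsomorphin were lowest; dorsomorphin-treated cells lay below control cells by 1.63 ± 0.29 (adjusted p = 0.0245). Lars2 fell by 1.25 ± 0.25 (adjusted p = 0.0326). Its call was lost in 4 of 10 other settings, over which the difference ran from -1.25 to -0.46. Farsb, the beta chain of the cytosolic phenylalanine enzyme, fell by 1.39 ± 0.32 (adjusted p = 0.0429), while the alpha chain gene Farsa differed by 0.28 ± 0.26. This call of Farsb was lost in 4 of 10 other settings and in all 8 fits that left out 1 array, that of Cars2 in 3 of 10 and 3 of 8.

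Mars2, for methionine, lay near the floor. It had 5.71 and 5.30 in stimulated cells with dorsomorphin, 5.73 and 7.21 in stimulated cells, 1.36 and 4.59 in dorsomorphin-treated cells and 6.06 and 6.49 in control cells, and both dorsomorphin-treated arrays lay under the floor. By this probe set its level in dorsomorphin-treated cells was at least 2.08-fold lower than in control cells, but the comparison did not pass (adjusted p = 0.0969). The other Mars2 probe set, above the floor on 5 arrays, did not show this fall, with a difference of 0.09. The 4 mitochondrial members Yars2, Hars2, Ears2 for glutamate and Sars2 had differences above 0 in this comparison, at 0.78, 0.61, 0.14 and 0.11, and none of these passed.

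With dorsomorphin present, stimulation moved no synthetase past the threshold. In stimulated cells with dorsomorphin against dorsomorphin-treated cells, 0 of 35 members passed by limma at the adjusted threshold and 0 at an unadjusted p below 0.05. Over all tested genes 0% rose and 0% fell at the adjusted threshold, and 2.85% rose and 1.01% fell without adjustment. The cytosolic differences ran from -0.10 (Eprs1) to 0.75 (Wars1), with a median of 0.26, and the mitochondrial ones other than Mars2 from -0.25 (Fars2, for phenylalanine) to 0.47 (Nars2, for asparagine). The mitochondrial median was 0.10. For Mars2, whose dorsomorphin-treated arrays both lay under the floor, the level by the probe set used was at least 1.22-fold higher in stimulated cells with dorsomorphin, and it did not pass either.

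Whether dorsomorphin acted differently in stimulated and unstimulated cells was tested by the interaction term, the dorsomorphin difference in stimulated cells minus that in unstimulated cells. Of the 35 members 0 passed at the adjusted threshold, where 0.0358% of all tested genes passed above 0 and 0.0501% below. At an unadjusted p below 0.05, 16 members had a negative interaction and 0 a positive one, where 8.68% of all tested genes were negative and 17.7% positive. The 16 were 15 cytosolic enzymes, with a list median of -1.43, and Yars2, and the mitochondrial median was 0.12 (0.10 with Mars2 at its bound). The lowest adjusted p was that of Eprs1, with an interaction of -1.90 ± 0.30 (adjusted p = 0.0609). Tars1 had -2.01 ± 0.37 (adjusted p = 0.0648). With a variance trend and robust estimation 13 members passed, all negative, and in the other settings between 0 and 10. Calls over all genes moved with them, with 2036 in the fit that called 13 members and 1867 in the one that called 10, against 12 as reported.

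Cytosolic and mitochondrial enzymes for the same amino acid allow a comparison with the amino acid held constant, in 13 pairs of genes. Only genes whose symbols differ in the final 1 or 2 alone were paired. Phenylalanine (Farsa, Farsb and Fars2), glutamate (Eprs1 and Ears2) and proline (Eprs1 and Pars2) were therefore left out. For stimulation without dorsomorphin the cytosolic difference was the larger in 11 of 13 pairs, by a median of 1.37. The widest gap was that of isoleucine, with 2.26 for Iars1 and -0.48 for Iars2, followed by cysteine, with 1.85 for Cars1 and -0.76 for Cars2. The exceptions were serine, with 0.31 for Sars1 and 0.95 for Sars2, and tyrosine, with 0.72 for Yars1 and 1.97 for Yars2.

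For dorsomorphin in unstimulated cells the cytosolic difference was the higher in 10 of 13 pairs, by a median of 1.28 (0.88 with Mars2 at its bound). The exceptions were histidine, serine and tyrosine. For dorsomorphin in stimulated cells it was higher in 5 of 13, with a median gap of -0.59: there Hars1 and Hars2 were furthest apart, and Vars2, at -2.52, lay below Vars1, at -1.61. Genes are not replicates of a condition, so these counts carry no test.

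**Figure D4:**
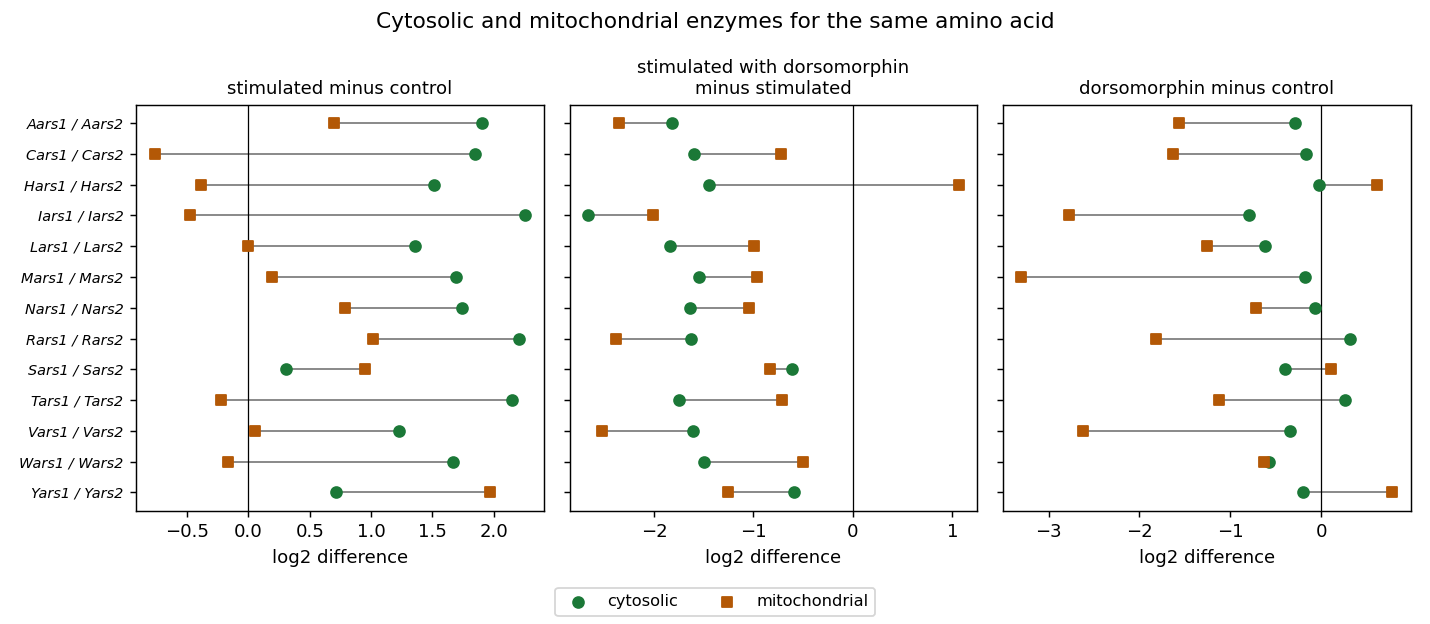
Log2 difference of the cytosolic and the mitochondrial enzyme for each of 13 amino acids, for stimulation without dorsomorphin, dorsomorphin in stimulated cells and dorsomorphin in unstimulated cells. The cytosolic enzyme had the larger difference in 11 of 13 pairs for stimulation, in 5 of 13 for dorsomorphin in stimulated cells and in 10 of 13 for dorsomorphin in unstimulated cells, where Mars2 is drawn at its fitted value.

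Enzymes inside and outside the complex, and known ATF4 targets and the others, were called in similar shares. For stimulation, 6 of 7 enzymes of the complex and 9 of 12 outside it rose, and so did 10 of 13 known ATF4 targets and 5 of 6 others, both with a median difference of 1.74. For dorsomorphin in stimulated cells, 10 of the 13 known targets and 5 of the 6 others fell, with medians of -1.61 and -1.44. The differences between these subgroups were not tested. By structural class, 9 of 19 class I and 8 of 16 class II enzymes rose with stimulation, and 12 and 9 fell with dorsomorphin in stimulated cells. Over all tested genes 8.98% rose and 12.4% fell in these comparisons. In the latter, 1 class II enzyme, Hars2, rose (6.25%, beside 9.71% of all tested genes).

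Since ATF4 and MYC both have known DNA elements, the promoters were searched for them in the window from 250 bases before to 50 after the start of transcription, as given by RefSeq on build GRCm38.p6 and matched for 26 of the 35 members. The ATF4 element was searched as TGATGNAAN and the E-box, which MYC binds, as CACGTG, on both strands. The ATF4 letters occurred in 5 of 12 cytosolic promoters (41.7%), in 0 of 14 mitochondrial promoters and in 3.95% of all 32851 promoters. The E-box occurred in 4 of 12 cytosolic promoters (33.3%), in 1 of 14 mitochondrial promoters (7.14%, Ears2) and in 7.15% of all. All 5 genes with the ATF4 letters were on the list of known ATF4 targets, 8 of which had a promoter, and some of those targets are known through such elements.

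The 5 promoters with an ATF4 match are printed because they belong to the genes that carry the letters, on the strand of the gene, with every match of either motif in capitals. They lie at chr8:111033592-111033891 (Aars1, plus strand), chr6:55037751-55038050 (Gars1, plus), chr13:49681880-49682179 (Iars1, plus), chr15:11399609-11399908 (Tars1, minus) and chr4:129189653-129189952 (Yars1, plus). The RefSeq start follows base 250 of each.
Aars1: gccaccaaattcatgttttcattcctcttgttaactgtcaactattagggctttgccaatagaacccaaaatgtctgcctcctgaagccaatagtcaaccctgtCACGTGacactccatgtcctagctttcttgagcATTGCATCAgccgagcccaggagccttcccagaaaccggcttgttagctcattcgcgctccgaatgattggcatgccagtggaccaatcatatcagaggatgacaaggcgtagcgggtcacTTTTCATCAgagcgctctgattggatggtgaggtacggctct
Gars1: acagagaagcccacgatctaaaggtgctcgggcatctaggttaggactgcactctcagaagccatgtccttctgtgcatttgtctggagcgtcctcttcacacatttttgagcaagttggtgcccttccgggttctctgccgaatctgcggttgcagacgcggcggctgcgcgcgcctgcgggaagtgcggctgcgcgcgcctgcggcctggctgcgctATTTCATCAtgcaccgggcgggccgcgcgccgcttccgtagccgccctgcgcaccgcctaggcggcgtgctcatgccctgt
Iars1: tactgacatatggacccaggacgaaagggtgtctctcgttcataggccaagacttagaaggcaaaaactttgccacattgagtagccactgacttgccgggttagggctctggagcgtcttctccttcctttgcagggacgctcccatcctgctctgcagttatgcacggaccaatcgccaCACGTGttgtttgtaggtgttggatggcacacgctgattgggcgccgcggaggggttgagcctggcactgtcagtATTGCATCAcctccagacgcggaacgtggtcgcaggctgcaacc
Tars1: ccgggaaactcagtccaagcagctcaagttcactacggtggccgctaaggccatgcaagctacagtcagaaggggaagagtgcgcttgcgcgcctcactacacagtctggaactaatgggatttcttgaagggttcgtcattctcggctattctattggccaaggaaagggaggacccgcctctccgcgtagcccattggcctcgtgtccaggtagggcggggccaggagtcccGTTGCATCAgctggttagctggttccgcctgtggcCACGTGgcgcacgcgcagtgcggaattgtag
Yars1: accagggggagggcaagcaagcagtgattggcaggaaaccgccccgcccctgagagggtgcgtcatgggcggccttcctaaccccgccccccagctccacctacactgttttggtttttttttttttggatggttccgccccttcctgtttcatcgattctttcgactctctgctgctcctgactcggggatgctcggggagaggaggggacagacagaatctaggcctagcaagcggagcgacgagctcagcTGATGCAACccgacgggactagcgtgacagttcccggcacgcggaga

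Aars1 held the ATF4 letters in 2 places, at bases -113 to -105 and 9 to 17 counted from the start, and an E-box at -146 to -141. In Gars1 they lay at -31 to -23, in Iars1 at 7 to 15, in Tars1 at -16 to -8 and in Yars1 at 4 to 12. Iars1 and Tars1 also held an E-box, at -69 to -64 and 20 to 25, and so did Farsb, at -39 to -34. Aars1, Gars1, Iars1 and Tars1 rose with stimulation, while Yars1 did not pass, and Eprs1, Farsa, Kars1 and Mars1 rose with neither motif in the window, as did the mitochondrial Rars2 and Yars2. A match is a stretch of letters, and no binding was measured here.

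Of the 3 scaffold genes of the multi-synthetase complex, 2 rose with stimulation and 2 fell with dorsomorphin in stimulated cells. Over all tested genes 8.98% rose and 12.4% fell in these comparisons. Aimp2 had 10.21 and 10.94 in stimulated cells with dorsomorphin, 12.39 and 12.77 in stimulated cells, 10.21 and 10.64 in dorsomorphin-treated cells and 9.82 and 9.99 in control cells. The stimulated arrays stood above the rest, with a rise of 2.68 ± 0.33 with stimulation (adjusted p = 0.01) and a fall of 2.01 with dorsomorphin in stimulated cells. Eef1e1, which encodes AIMP3, differed by 2.43 and -2.49, both past the threshold, and Aimp1 by 0.95 and -0.67, neither past it.

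Genes that make tRNAs ready for charging were compared over the same contrasts. Of 17 tested genes for tRNA end processing, splicing and export, 8 rose and 1 fell with stimulation, and 1 rose and 7 fell with dorsomorphin in stimulated cells. They included Pop1, a subunit of RNase P (2.30 and -1.49), Elac2, the 3′ end nuclease (1.87 and -1.60), and Xpot, the tRNA exporter (1.65 and -1.42). The splicing subunit Tsen34 ran the other way (-1.18 and 0.88). Rises with stimulation made up 47.1% of the list, beside 8.98% of all tested genes, and falls with dorsomorphin 41.2%, beside 12.4%. The 1 fall with stimulation and the 1 rise with dorsomorphin, 5.88% each, lay below the 14.4% and 9.71% of all tested genes.

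Of 31 tRNA modification genes, 15 rose with stimulation and 15 fell with dorsomorphin in stimulated cells, with 0 in the opposite direction in either. Each count was 48.4% of the list, beside 8.98% of all tested genes for the rises and 12.4% for the falls. Mettl1, the tRNA 7-methylguanosine methyltransferase, had log2 signals of 6.23 and 7.21 in stimulated cells with dorsomorphin, 11.26 and 11.14 in stimulated cells, 6.46 and 6.08 in dorsomorphin-treated cells and 5.97 and 5.76 in control cells. Its stimulated arrays stood far above the other 6, with a difference from control of 5.34 ± 0.37 (adjusted p = 0.00784), and the arrays with both treatments lay below the stimulated arrays by 4.48 ± 0.37 (adjusted p = 0.00576). Pus7, a pseudouridine synthase, differed by 3.62 with stimulation and -3.22 with dorsomorphin in stimulated cells.

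Factors that use charged tRNAs at the ribosome were compared as well. Of 8 cytosolic elongation and termination genes, 4 rose with stimulation, 1 fell with dorsomorphin in stimulated cells (Abce1, the ribosome recycling factor, at -1.40) and 2 rose with dorsomorphin in unstimulated cells, the release factor genes Etf1 (1.40) and Gspt1 (1.47). These were 50%, 12.5% and 25% of the list, beside 8.98%, 12.4% and 1.92% of all tested genes. The 1 fall was thus near the share of all genes. Of 12 mitochondrial translation genes, 3 rose with stimulation, the elongation factors Tsfm (1.91), Gfm1 (1.69) and Tufm (1.55), and 5 fell with dorsomorphin in stimulated cells. The rises were 25% and the falls 41.7% of the list, beside 8.98% and 12.4% of all tested genes. Mtif2, the mitochondrial initiation factor, fell with dorsomorphin in both settings, at -1.72 in stimulated and -2.03 in unstimulated cells.

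**Figure D5:**
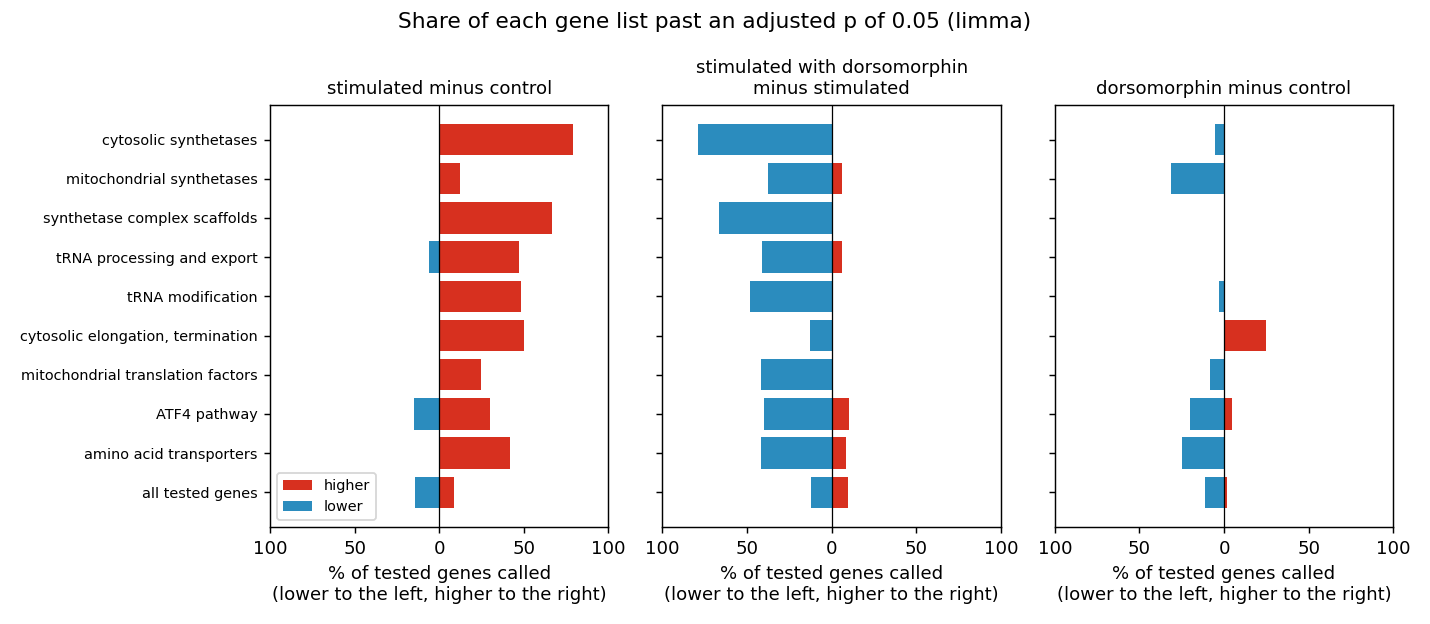
Share of the tested genes of each list that rose and that fell, for stimulation without dorsomorphin and for dorsomorphin in stimulated and in unstimulated cells, beside the share of all tested genes. For stimulation, 15 of 19 cytosolic and 2 of 16 mitochondrial synthetases rose, against 15 of 31 tRNA modification genes and 8.98% of all tested genes.

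Atf4 itself had 12.91 and 13.22 in stimulated cells with dorsomorphin, 13.06 and 13.30 in stimulated cells, 13.18 and 13.13 in dorsomorphin-treated cells and 12.17 and 12.12 in control cells. All 6 treated arrays lay above the control arrays, so Atf4 rose with stimulation, by 1.04 ± 0.22 (adjusted p = 0.0263), and also with dorsomorphin in unstimulated cells, by 1.01 ± 0.22 (adjusted p = 0.0402), and differed by -0.12 ± 0.22 between stimulated cells with and without dorsomorphin. In that last comparison 15 cytosolic synthetases fell. The arrays read Atf4 mRNA alone, and the part of ATF4 in these falls was not tested. Asns, the asparagine synthetase and a known ATF4 target, had 7.41 and 8.08 in stimulated cells with dorsomorphin, 10.14 and 10.66 in stimulated cells, 7.24 and 6.81 in dorsomorphin-treated cells and 7.03 and 6.54 in control cells, with the stimulated arrays highest.

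Of the 20 tested genes of the ATF4 pathway, 6 rose and 3 fell with stimulation, and 2 rose and 8 fell with dorsomorphin in stimulated cells. The 3 that fell with stimulation (15%, beside 14.4% of all genes) and the 2 that rose with dorsomorphin (10%, beside 9.71%) were near the shares of all genes. The serine and folate pathway enzymes Psat1 and Shmt2 differed by 3.64 and 3.16 with stimulation and by -3.22 and -3.55 with dorsomorphin in stimulated cells. Ddit3, which encodes the stress factor CHOP, and Eif2ak3, which encodes the kinase PERK, ran opposite, at -1.03 and -1.59 with stimulation and 1.63 and 1.61 with dorsomorphin. Trib3, a pseudokinase induced by ATF4, fell with stimulation (-1.97) and with dorsomorphin in unstimulated cells (-2.18).

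Eif2ak4 encodes GCN2, the kinase that senses uncharged tRNA through a domain related to histidyl-tRNA synthetase. It had 4.99 and 2.54 in stimulated cells with dorsomorphin, 8.49 and 8.41 in stimulated cells, 3.71 and 2.94 in dorsomorphin-treated cells and 8.30 and 8.18 in control cells. Both groups with dorsomorphin lay under the floor and both without it above, so the level was at least 9.4-fold lower with dorsomorphin in stimulated cells (adjusted p = 0.0131) and at least 8.1-fold lower in unstimulated cells (adjusted p = 0.0197). Stimulation without dorsomorphin left it at a difference of 0.21 ± 0.78, which did not pass.

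Of 12 amino acid transporters, 5 rose with stimulation, and 1 rose and 5 fell with dorsomorphin in stimulated cells. The 5 that rose with stimulation and the 5 that fell were each 41.7% of the list, beside 8.98% and 12.4% of all tested genes. The 1 rise with dorsomorphin (8.33%) lay below the 9.71% of all tested genes. Slc7a5, the light chain of the large neutral amino acid exchanger, differed by 3.88 and -3.30, and Slc1a5, the glutamine and neutral amino acid carrier, by 2.54 and -3.74. Slc38a1, a sodium-coupled glutamine carrier, fell with dorsomorphin in stimulated cells (-4.63) and in unstimulated cells (-3.66). Slc38a2, its relative that adapts to amino acid supply, was the transporter that rose with dorsomorphin in stimulated cells, by 0.89.

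Myc had 8.53 and 8.73 in stimulated cells with dorsomorphin, 13.48 and 13.55 in stimulated cells, 8.35 and 8.42 in dorsomorphin-treated cells and 10.12 and 9.89 in control cells. Its stimulated arrays were highest, the control arrays came next and the 4 with dorsomorphin were lowest. Farsb, Iars1, Lars1 and Sars1 shared this order, the other cytosolic synthetases did not, and the mitochondrial Rars2 and Aars2 did. Of these genes only Farsb and Rars2 passed for stimulation and for dorsomorphin in both settings, and Sars1 and Aars2 passed for none of these. Any link of the synthetases to Myc was not tested. Myc differed by 3.51 ± 0.21 with stimulation, -4.89 ± 0.21 with dorsomorphin in stimulated cells and -1.62 ± 0.21 with dorsomorphin in unstimulated cells, all past the threshold. Mxd4, a repressor that competes with MYC for its partner MAX, ran opposite, at -4.74 with stimulation and 4.68 with dorsomorphin in stimulated cells.

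Of the 35 members, 12 had 1 probe set and 23 had several. Among their 37 other probe sets, 35 were above the floor on at least 2 arrays, and of these 29 had the sign of the probe set used for stimulation, 28 for dorsomorphin in stimulated cells and 24 for dorsomorphin in unstimulated cells. For Farsa, 2 of its 3 other probe sets gave 0.11 and 0.02 for dorsomorphin in stimulated cells, against -1.28 for the one used, and with the mean of its probe sets neither of its calls passed. For Eprs1, 1 of 3 others gave -0.06 where the other 2 gave -2.11 and -2.77, and for Farsb 1 of 3 gave -0.06 for stimulation where the other 2 gave 1.99 and 2.16. Some mitochondrial members differed in sign for dorsomorphin in stimulated cells. The other probe set gave 0.53 for Mars2 and 0.35 for Nars2, against -0.96 and -1.04 for those used. For Fars2 the other gave -1.50, against 0.43.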

How the data were processed

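The deposited values were intensities on a linear scale, with 45101 probe sets on each of 8 arrays. RMA and affy are named, without versions, in the submitters' processing notes. The values do not have the log2 form of RMA output: on every array the mean after trimming 2% at each end was 500.0, so the arrays had been brought to a common level by a step that the labels do not name. Background is unknown, since detection calls were not part of the data used, and the number of arrays limits the precision.

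The log2 of the deposited intensities was taken with no further normalization. The platform annotation gave 1 gene symbol to 34945 probe sets, several to 932 and none to 9160, and the remaining 64 were controls. Each of 18193 genes was represented by the probe set with the highest mean log2 signal. The working floor was the 40th percentile of the whole table (log2 5.22, signal 37.3), and the 13983 genes above it on at least 2 arrays were tested. For a group with both arrays under that floor, the text gives a lower bound on the fold, with values of the dim group raised to the floor where they lay under it.

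All 8 arrays were fitted in 1 model with limma 3.58.1 in R 4.3.3 (4 residual and 1.90 prior degrees of freedom), with 5 contrasts, two-sided tests, Benjamini-Hochberg adjustment over all tested genes and a threshold of 0.05. The limma step was tested on simulated data. The members, the gene lists and the alternatives were chosen with earlier results of these data known. Members named with a value per array were the 6 with the largest called differences per contrast, the called mitochondrial members, and those that ran against their list; others were added to show the groups. From each pathway list up to 4 called genes were eligible, and Atf4, Asns, Myc and Il2 always. Other settings tried were 3 scalings, an added value of 16, other filters, the mean of probe sets, smaller fits, a variance trend, the replicate number as a block, and leaving out each array.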

Additional observations from a re-analysis of the deposited data

Results flagged for a closer look

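In 3 synthetases both dorsomorphin-treated arrays lay above both control arrays, while both arrays with both treatments lay below both stimulated arrays. In unstimulated cells the differences were below their SE for Gars1 (0.17 ± 0.24) and Rars1 (0.32 ± 0.37), and 0.78 ± 0.27 for Yars2. None of these 3 passed by limma (adjusted p = 0.67, 0.613 and 0.115). The share of all genes with this pattern was not counted. The dorsomorphin difference between stimulated and unstimulated cells was tested by the interaction term of the limma fit. The interaction was -1.72 ± 0.34 (SE) for Gars1 (adjusted p = 0.0693), -1.95 ± 0.52 for Rars1 (adjusted p = 0.0982) and -2.03 ± 0.39 for Yars2 (adjusted p = 0.0669), so none passed the threshold.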

How the results depend on the processing

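No call of a synthetase changed its sign under any setting tried. With stimulation against control, 17 members passed and 12 of them passed in all 10 other settings, 9 of which used every array; leaving out 1 array in turn gave 0 to 17. With dorsomorphin in unstimulated cells, 6 passed, against 3 with each array centred on its median, 3 in a fit of only the 4 arrays compared, 11 with a variance trend and robust estimation, and 0 to 6 when leaving out 1 array in turn. With dorsomorphin in stimulated cells, 22 passed, against 0 in a fit of only the 4 arrays and 6 to 21 when leaving out 1 array in turn. The interaction called 0, against 2 with quantile normalization, 6 with 16 added before log2, 10 with a filter at the 60th percentile, 13 with the variance trend, and 0 to 2 when leaving out 1 array in turn. Stimulation under dorsomorphin called 0 of 35 in the settings tried. For the cytosolic enzymes, centring on the median gave a median difference of 2.10 for stimulation, 0.041 for dorsomorphin in unstimulated cells (from -0.18, a turn of sign) and -1.86 in stimulated cells, where cyclic loess gave -1.74. For the mitochondrial enzymes, stimulation gave 0.44 with centring, 0.50 with cyclic loess and 0.50 with quantile normalization; dorsomorphin in unstimulated cells gave -0.92, -0.95 and -0.90 in that order and -0.95 with the mean of probe sets; dorsomorphin in stimulated cells gave -1.23 with centring and -1.16 with cyclic loess. The median of all genes for stimulation moved from -0.27 to 0.10 with centring and 0.00 with cyclic loess, and the calls over all genes from 1256 higher and 2013 lower to 1018 and 1045 with centring and 1600 and 1593 with cyclic loess. The cause of these shifts was not tested. Same-numbered arrays correlated in their deviations from the group means by 0.0687 to 0.178, and the labels do not say what a number marks. With the number as a replicate block, 18, 6 and 22 members passed in the 3 comparisons above and 0 in the other 2. Leaving out either control array ended every call against control, so those calls rest on the 2 control arrays together.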
